A study of Homo sapiens with 10 samples.

Results

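The protein kinase C genes form a family of serine and threonine kinases, of which 8 were examined: PRKCA, PRKCB, PRKCD, PRKCE, PRKCH, PRKCI, PRKCQ and PRKCZ. They were chosen by family membership, and PRKCH is also named by the study. For each of the 20090 protein-coding genes, including these 8, a window was drawn over the gene body and 50 kb on each side in the human genome build hg19 (GRCh37). Within each window the histone mark H3K4me1 and the binding of the receptor HER2 were measured, and for the 8 genes levels and peak densities were set against the length of the window. SKBR3 and BT474 are established human breast cancer lines in which ERBB2, the gene for HER2, is amplified. HER2 was mapped by ChIP-exo, in which an exonuclease trims the DNA bound by the antibody, in asynchronous cells that had received water as the vehicle or, for 3 h, 100 ng/ml of epidermal growth factor (EGF). Each of these 4 conditions had 1 peak list, and the lots of the HER2 antibody differed between the lines. For H3K4me1, ChIP-seq gave 2 replicates in each line, with 1 antibody lot. The labels call these cells asynchronous without naming EGF, whereas the text of the study describes them as EGF-treated.

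Protein kinase C enzymes carry signals from receptors at the cell surface, including EGF receptors, by way of phospholipase C, which releases diacylglycerol and raises calcium. The conventional members, PKC alpha (PRKCA) and PKC beta (PRKCB), need both calcium and diacylglycerol. A further group, PKC delta (PRKCD), epsilon (PRKCE), eta (PRKCH) and theta (PRKCQ), respond to diacylglycerol without calcium, and the atypical members, PKC iota (PRKCI) and zeta (PRKCZ), respond to neither. Phorbol esters, which are tumour promoters, activate the members that bind diacylglycerol in its place. H3K4me1 is a mark of enhancers and of the sides of active promoters. Neither the mark nor a HER2 peak measures how much of a kinase is made.

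The H3K4me1 libraries held between 70251 and 96291 islands, which are broad stretches enriched for the mark, with 15097156 to 18713926 reads inside them. Islands covered 9.75% to 10.6% of the genome in every library. A window without an island holds no called signal, which does not mean that no reads lay there, since the island with the fewest reads held 20 to 28 of them depending on the library. The HER2 lists were of very unequal length, with 2596 and 2520 peaks in SKBR3 after vehicle and EGF against 8559 and 29326 in BT474. As a check of the labelled lines, the gene bodies of ERBB2 and of its neighbour GRB7 were covered by H3K4me1 over at least 97.2% of their length in every library. PGR, the progesterone receptor gene, was covered over 88.6% and 86.6% in BT474 but over 2.40% and 3.54% in SKBR3. The body of the luminal factor GATA3 was covered in BT474 alone, but its whole window was covered over 15.7% and 13.2% in SKBR3 and 19.6% and 16.9% in BT474. Of the luminal keratin genes, KRT8 was covered over 61.8% to 67.5% of its body in both lines. The body of KRT18 was covered over 17.1% and 0% in SKBR3 and 51.8% and 61.7% in BT474. That of ESR1, the oestrogen receptor gene, was covered over 19.7% and 18.8% in SKBR3 and 26.3% and 27.3% in BT474. The blood marker genes PTPRC and CD3E also carried islands, over 41.0% to 55.0% of their bodies in SKBR3 and 17.6% to 23.5% in BT474. Of the mesenchymal genes, the body of ZEB1 was covered over 0% in both SKBR3 libraries and over 6.72% and 8.71% in BT474. That of VIM was covered over 10.7% and 12.8% in SKBR3 and 44.5% and 23.1% in BT474.

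HER2 peaks in both lines after EGF overlapped at 6 sites in the windows of the protein kinase C genes, and these were all of the SKBR3 EGF peaks found there. The sequences of 5 of them are shown, as the peak was placed in SKBR3, because they are sites at which the HER2 lists of the 2 lines met. Each is read on the plus strand of hg19, and all of the sites lie in introns. Capitals mark matches to CGTNTGC, a core that recurs at peaks of these lists, on either strand.
PRKCB, chr16:24059219-24059476: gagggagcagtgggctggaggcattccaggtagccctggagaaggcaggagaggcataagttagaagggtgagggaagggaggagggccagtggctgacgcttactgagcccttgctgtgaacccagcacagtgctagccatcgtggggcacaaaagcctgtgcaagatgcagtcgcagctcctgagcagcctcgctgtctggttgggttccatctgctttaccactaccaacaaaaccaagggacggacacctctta
PRKCE, chr2:45990984-45991183: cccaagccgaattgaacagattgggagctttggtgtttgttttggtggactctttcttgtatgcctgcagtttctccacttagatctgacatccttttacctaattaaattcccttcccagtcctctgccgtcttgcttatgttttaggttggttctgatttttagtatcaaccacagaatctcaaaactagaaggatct
PRKCH, chr14:61880669-61880873: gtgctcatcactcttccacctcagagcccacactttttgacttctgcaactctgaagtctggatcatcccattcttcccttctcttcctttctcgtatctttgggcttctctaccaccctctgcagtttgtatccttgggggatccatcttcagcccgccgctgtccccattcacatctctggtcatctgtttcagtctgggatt
PRKCQ, chr10:6473269-6473520: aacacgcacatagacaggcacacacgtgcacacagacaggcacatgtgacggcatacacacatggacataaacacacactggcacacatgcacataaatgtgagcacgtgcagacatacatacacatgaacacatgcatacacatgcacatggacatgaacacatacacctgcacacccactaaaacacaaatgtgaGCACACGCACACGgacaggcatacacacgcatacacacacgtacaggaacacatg
PRKCQ, chr10:6475390-6475598: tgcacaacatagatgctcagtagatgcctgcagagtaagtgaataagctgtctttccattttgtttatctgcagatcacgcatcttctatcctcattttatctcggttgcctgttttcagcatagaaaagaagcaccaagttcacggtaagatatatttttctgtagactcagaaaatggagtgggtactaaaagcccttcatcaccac
The GC content of the 5 sequences ran from 40.2% to 57.8%, with the highest at the PRKCB site. The core was found in the first PRKCQ sequence, as 2 overlapping matches on the minus strand at positions 198 and 204 of the 252 bases. The letters of the core are not in the other 4 windows.

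The 8 genes differed widely in H3K4me1. PRKCE, PRKCH, PRKCA, PRKCI and PRKCD carried far more of the mark in SKBR3 than the median window, PRKCZ was near the median, and PRKCQ and PRKCB were almost bare. Levels are given in RPM, which are reads inside islands scaled to 1000000 island reads of the library, per 100 kb of window. The median over all 20090 windows was 28.8 and 30.0 in the SKBR3 replicates and 35.3 and 34.8 in those of BT474. Reads were higher in SKBR3 at 7 of the 8 genes by edgeR's quasi-likelihood test with Benjamini-Hochberg adjustment over the 18837 windows tested, and lower at 0. Over all windows tested, 34.2% were higher in SKBR3 and 38.2% were higher in BT474. The median log2 ratio of SKBR3 over BT474 was 1.01 over the 8 genes and -0.11 over all windows. The 8 include PRKCB, where 1 library held no island and for which no fold is given below. Among the 7 genes with a fold, the middle ratio was 0.62, that of PRKCZ. Log2 ratios and folds are those of edgeR, which adds TMM scaling between libraries that the RPM levels lack. They therefore differ from ratios of the printed levels. Both SKBR3 values lay above both BT474 values at all 8 genes, as they did for 34.7% of all windows. The origin of the replicates is not stated, so that p-values measure only the spread between these libraries, which may be technical.

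**Figure D1:**
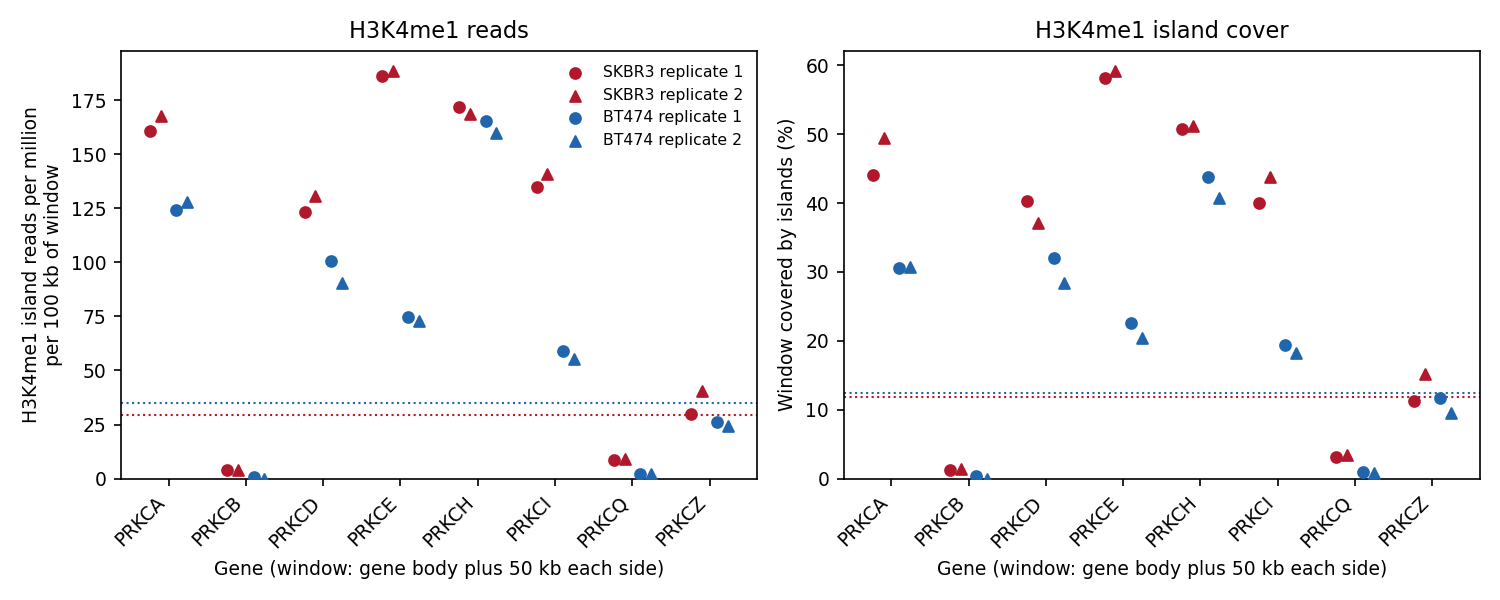
H3K4me1 in the window of each protein kinase C gene, as RPM of island reads per 100 kb (left) and as the percentage of the window under islands (right). Each point is 1 library (SKBR3 red, BT474 blue, circle replicate 1, triangle replicate 2) and dotted lines are the mean of the medians over all windows in each line. The points of PRKCE separate the lines most, with 58.6% mean cover in SKBR3 against 21.5% in BT474, while those of PRKCH lie close together in reads.

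PRKCA, the conventional kinase PKC alpha, spans chr17:64298731-64806861 on the plus strand. Its level was 161 and 167 RPM per 100 kb in the SKBR3 replicates and 124 and 128 in those of BT474. The log2 ratio was 0.52 ± 0.04 (SE, n = 2 per line, edgeR adjusted p = 0.000467). Both lines stood well above their medians, and the libraries of the lines did not overlap. Islands covered 46.7% ± 3.8 (SD, n = 2) of the window in SKBR3 and 30.6% ± 0.1 in BT474. The 72 neighbouring protein-coding windows within 5 Mb had a median log2 ratio of 0.84, so that the ratio at PRKCA was -0.32 once this regional median was taken away. Its excess in SKBR3 was thus smaller than that of its neighbours, and the copy number of the region cannot be told apart from the mark with the lists used here.

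PRKCB encodes PKC beta, which is best known in B cells and neurons. Its gene body is chr16:23847304-24231932 on the plus strand. The level was 3.83 and 3.77 RPM per 100 kb in SKBR3 and 0.606 in BT474 replicate 1, and no island was called in BT474 replicate 2. The mark was nearly absent in both lines, and no fold is given because 1 library holds no island. The difference in reads did not pass the edgeR test (adjusted p = 0.108). It passed without BT474 replicate 1 (adjusted p = 0.00618) or without BT474 replicate 2 (adjusted p = 0.0251), where the lone BT474 library is assumed to vary as the SKBR3 libraries do. It also passed over the gene body alone (adjusted p = 0.00215) and over the gene body with 10 kb on each side (adjusted p = 0.00164), where no island was called in BT474.

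PRKCD, PKC delta, lies at chr3:53190025-53226733 on the plus strand and has the smallest window of the family at 137 kb. Its level was 123 and 131 in SKBR3 and 101 and 90.2 in BT474, a log2 ratio of 0.55 ± 0.07 (SE, n = 2 per line, edgeR adjusted p = 0.00266). The regional median of 165 windows was 0.38, which leaves 0.17. Between 20.9% and 26.4% of the window's reads fell within the gene body, and the rest lay in the flanks, mostly on the upstream side.

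PRKCE, PKC epsilon, which can act as an oncogene when overexpressed, spans chr2:45878484-46415129 on the plus strand. Its level was 186 and 188 in SKBR3 against 74.9 and 72.7 in BT474. The edgeR fit with TMM scaling gave a 2.80-fold difference (log2 ratio 1.49 ± 0.04, SE, n = 2 per line, edgeR adjusted p = 7.64e-05). Cover was 58.6% ± 0.8 (SD, n = 2) in SKBR3 and 21.5% ± 1.5 in BT474. The replicates of a line differed far less than the lines did. The regional median of 49 windows was 0.41, and 1.07 remained above it.

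PRKCH, PKC eta, which is known from epithelial cells, spans chr14:61654277-62017694 on the plus strand. The level was 172 and 168 in SKBR3 and 165 and 160 in BT474, at percentiles 95.3 to 96.0 of all windows in each library. The lines differed little, with a log2 ratio of 0.21 ± 0.05 (SE, n = 2 per line, edgeR adjusted p = 0.0135). This call was lost without BT474 replicate 1 (adjusted p = 0.0735), without BT474 replicate 2 (adjusted p = 0.0937) and when reads were scaled by library totals alone (log2 ratio 0.06, adjusted p = 0.158). The 59 windows of the region had a median of -0.29, against which PRKCH stood 0.50 higher. Cover was 51.0% ± 0.4 (SD, n = 2) in SKBR3 and 42.3% ± 2.2 in BT474.

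PRKCQ, PKC theta, which acts downstream of the T cell receptor, spans chr10:6469105-6622263 on the minus strand. The level was 8.61 and 9.26 in SKBR3 and 2.26 and 2.09 in BT474, a log2 ratio of 2.18 ± 0.25 (SE, n = 2 per line, edgeR adjusted p = 0.00169). The ratio was the highest of the 7 genes with a fold, at levels below the median window in all 4 libraries. Those reads came almost wholly from the downstream flank. The gene body held no island in 3 libraries, and in BT474 replicate 2 an island over 0.653% of it held 48.8% of the window's reads.

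PRKCI encodes PKC iota, an atypical member of the polarity complex with PARD3 and PARD6. The gene spans chr3:169940212-170023765 on the plus strand. Its level was 135 and 141 in SKBR3 and 59.2 and 55.5 in BT474. The edgeR fit with TMM scaling gave a 2.65-fold difference (log2 ratio 1.41 ± 0.06, SE, n = 2 per line, edgeR adjusted p = 0.000147). The gene body held 34.7% and 38.1% of the window's reads in SKBR3 and 55.5% and 56.6% in BT474. A larger part of the SKBR3 signal thus lay in the flanks, and in the gene body alone the log2 ratio was 0.80 (edgeR adjusted p = 0.00385). The 35 windows of the region had a median of 0.67, and 0.74 remained.

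PRKCZ, PKC zeta, spans chr1:1981850-2116834 on the plus strand. Its level was 29.8 and 40.5 in SKBR3 and 26.2 and 24.2 in BT474, a log2 ratio of 0.62 ± 0.15 (SE, n = 2 per line, edgeR adjusted p = 0.0187). The SKBR3 replicates lay farther from each other than the lower of them lay from the higher BT474 replicate. The call was lost without BT474 replicate 1 (adjusted p = 0.0782), without BT474 replicate 2 (adjusted p = 0.110) and with library totals (adjusted p = 0.0592). The regional median of 91 windows was 0.81, so that PRKCZ stood at -0.19 relative to its neighbours.

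**Figure D2:**
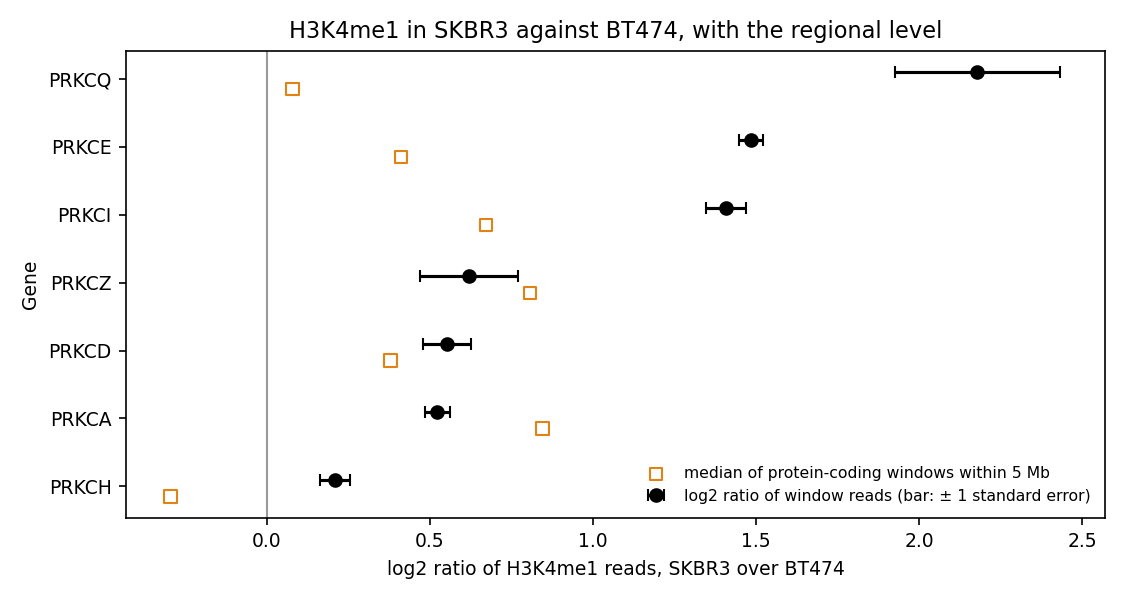
Log2 ratio of H3K4me1 reads, SKBR3 over BT474, for the 7 protein kinase C genes with a fold, with bars of 1 standard error (n = 2 per line), beside the median ratio of the protein-coding windows within 5 Mb (orange squares). PRKCQ, PRKCE, PRKCI, PRKCD and PRKCH lie to the right of their regional medians, and PRKCA (0.52 against 0.84) and PRKCZ (0.62 against 0.81) to the left.

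The cover of the windows, which does not use the number of reads, was higher in SKBR3 for 7 of the 8 genes by limma on the logit of the covered share, with Benjamini-Hochberg adjustment. Of all windows, 27.5% were called higher in SKBR3 and 30.3% in BT474, the latter being so for 0 of the 8. Both SKBR3 replicates lay above both BT474 replicates at 7 of the 8, PRKCZ being the exception, and at 36.7% of all windows. The adjusted p ran from 0.00111 at PRKCE to 0.0420 at PRKCD, and PRKCZ did not pass (13.2% against 10.6%, adjusted p = 0.281). The calls of PRKCE and PRKCQ held whichever library was left out. PRKCA (adjusted p = 0.106 and 0.105) and PRKCI (adjusted p = 0.0507 and 0.0541) lost theirs without BT474 replicate 1 and 2 in turn, and PRKCB without SKBR3 replicate 1 (adjusted p = 0.159) or 2 (adjusted p = 0.166). PRKCD and PRKCH lost theirs whichever of the 4 libraries was removed, with adjusted p from 0.102 to 0.169 and from 0.0540 to 0.106. In the gene body alone, 4 of the 8 were called higher in SKBR3. Of all gene bodies, 2875 were called higher in SKBR3 and 4306 in BT474. On the scale of reads, library totals without further scaling moved the median log2 ratio of all windows from -0.11 to -0.26. Then 5 of the 8 genes were called higher in SKBR3 and 0 in BT474, beside 5642 and 7938 of all windows.

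The start sites of the genes followed the same division. Within 5 kb of the start of the canonical transcript, PRKCB and PRKCQ held 0 island reads in all 4 libraries. Their nearest islands in SKBR3 lay 64104 and 66897 bp away for PRKCB, and 155363 and 141163 bp away for PRKCQ. At the other 6 genes an island lay within 1187 bp of the start in both SKBR3 replicates. The start of PRKCE held 12.3 and 12.0 RPM within 5 kb in SKBR3 and 13.8 and 13.2 in BT474. Both BT474 values thus lay slightly above those of SKBR3 there. These RPM lack the TMM scaling used in the test, and the order of the lines depends on it. The TMM factors were 0.932 and 0.972 in SKBR3 and 1.06 and 1.04 in BT474. Over the whole window SKBR3 was far higher on the same RPM scale (186 and 188 against 74.9 and 72.7 per 100 kb). No test was made at the starts. At the start of PRKCI the values were 21.1 and 25.3 in SKBR3 and 11.6 and 10.0 in BT474, and at that of PRKCA 11.4 and 12.7 against 1.51 and 5.62. At the start of PRKCZ no island was called in BT474 replicate 2, whereas BT474 replicate 1 held 7.43 RPM, above both SKBR3 replicates (3.45 and 5.94). The canonical start of PRKCH lies 134 kb inside the annotated gene, and there the level was 14.8 and 16.9 in SKBR3 and 11.2 and 13.2 in BT474.

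Islands of the 4 libraries were merged where they overlapped, which gave 165 regions in the windows of the 8 genes. Of 144 regions tested, 84 were higher in SKBR3, 16 were higher in BT474 and 44 did not pass (edgeR, adjusted over 93127 regions). Over all regions tested, 27.5% were higher in SKBR3 and 43.2% in BT474. An island was found in both SKBR3 replicates and in neither of BT474 at 34 of the 165 regions, and the reverse at 5, against 13.5% and 26.1% of all regions. Among the 92 regions with an island in every library, fitted with the other regions of that kind, 55 were higher in SKBR3 and 12 in BT474, against 31.3% and 30.7% of all such regions. The number higher in BT474 fell from 16 to 5 without BT474 replicate 1 and to 6 without BT474 replicate 2. Gene bodies held 118 of the regions, with 65 higher in SKBR3 and 11 in BT474, and the flanks 47, with 19 and 5.

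PRKCE had 36 of 53 tested regions higher in SKBR3 and 2 higher in BT474, so that its excess was spread along the gene. Its region with the most reads, chr2:46162401-46195000 in an intron, held 1768 and 1823 reads in SKBR3 and 1077 and 893 in BT474 (log2 ratio 0.89 ± 0.05, edgeR adjusted p = 0.00193). That at chr2:45894601-45926800 held 1529 and 1432 against 929 and 669 (0.92 ± 0.11, adjusted p = 0.00373). The intronic region chr2:46038801-46054400 was nearly alike in the lines, at 1151 and 1123 against 1138 and 926 reads (0.16 ± 0.05, adjusted p = 0.0567). At 18 of the 60 regions islands were called in both SKBR3 replicates and in neither of BT474, among them chr2:46450801-46459200 in the downstream flank, with 547 and 470 reads, and chr2:46288801-46296400, with 330 and 297. The reverse occurred at 0 regions. The 2 regions higher in BT474 were chr2:45851001-45855200, upstream of the gene (94 and 99 against 337 and 277 reads, log2 ratio -1.64 ± 0.09, adjusted p = 0.00193), and chr2:45978201-45986200 (248 and 296 against 445 and 344, -0.51 ± 0.13, adjusted p = 0.0349).

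PRKCA joined opposite differences within the same gene. Of 31 tested regions, 22 were higher in SKBR3 and 2 in BT474, but its broadest region, 92.0 kb at chr17:64494401-64586400, was higher in BT474, with 3377 and 3383 reads in SKBR3 and 7686 and 6563 in BT474 (log2 ratio -1.05 ± 0.04, edgeR adjusted p = 0.00193). This region held 37% of the reads of all libraries in the regions of PRKCA. The intronic region chr17:64337601-64367000 went the other way (1403 and 1494 against 876 and 645, log2 ratio 0.96 ± 0.10, adjusted p = 0.00293), as did chr17:64455401-64474200 (1363 and 1299 against 1194 and 898, 0.38 ± 0.08, adjusted p = 0.0227). Near the 3′ end, chr17:64770801-64776600 held 430 and 477 reads in SKBR3 and no island was called in BT474. The same held at chr17:64801201-64810000, with 375 and 349 reads in SKBR3. A short region upstream, chr17:64289401-64290200, had islands in BT474 alone (45 and 40 reads).

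PRKCH was balanced, with 9 of 28 tested regions higher in each line and 10 that did not pass. Its largest region, 43.4 kb at chr14:61972601-62016000 at the 3′ end of the gene, held 2588 and 2494 reads in SKBR3 and 3745 and 2913 in BT474 (log2 ratio -0.36 ± 0.06, edgeR adjusted p = 0.0122). The region chr14:61806801-61839800, 35.0 kb after the canonical start, was higher in SKBR3 (1702 and 1526 against 1295 and 938, 0.56 ± 0.11, adjusted p = 0.0175). Between them, chr14:61934801-61961800 showed a log2 ratio of 0.02 ± 0.06 (1492 and 1519 against 1690 and 1343 reads, adjusted p = 0.832). The close levels of the whole window were thus a sum of regions that differed in both directions. Islands were called in SKBR3 alone at chr14:61611801-61617400 (155 and 136 reads) and chr14:62051201-62055800 (112 and 141), which are in the flanks. They were called in BT474 alone at chr14:61695001-61698000 (137 and 102) and chr14:61725801-61728600 (105 and 71), in introns before the canonical start.

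At PRKCI, 9 of 14 tested regions were higher in SKBR3 and 2 in BT474. The downstream flank held the region with the most reads, chr3:170051001-170074600, at 1086 and 1079 reads in SKBR3 and 210 and 119 in BT474 (log2 ratio 2.76 ± 0.22, edgeR adjusted p = 0.00194). The region just after the start, chr3:169941001-169948800, was also higher in SKBR3 (594 and 553 against 303 and 242, 1.1 ± 0.07, adjusted p = 0.00193). Inside the gene, chr3:169956401-169963600 was higher in BT474 (380 and 368 against 541 and 443, -0.37 ± 0.06, adjusted p = 0.00802), and so was chr3:169886601-169898800 in the upstream flank (240 and 265 against 619 and 528, -1.16 ± 0.08, adjusted p = 0.00193). Islands in SKBR3 alone were found at chr3:169914601-169920400 (223 and 207 reads) and chr3:169973601-169978000 (156 and 114).

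The other 4 genes had few regions. At PRKCD, the largest region, chr3:53164601-53194800, which ends just short of the canonical start, did not pass the test (1651 and 1769 against 1782 and 1358 reads, log2 ratio 0.15 ± 0.09, edgeR adjusted p = 0.207). The next, chr3:53196401-53207400, which begins just after that start, was higher in SKBR3 (380 and 429 against 248 and 135, 1.12 ± 0.26, adjusted p = 0.0270), as was chr3:53268601-53288400 downstream (849 and 863 against 774 and 592, 0.35 ± 0.07, adjusted p = 0.0206). PRKCB had a region in an intron, chr16:23913601-23920800, with 290 and 280 reads in SKBR3 and no island in BT474. Its other region, chr16:23814201-23815800, upstream of the gene, held 55 reads in BT474 replicate 1 alone. At PRKCQ the downstream region chr10:6438201-6445200 held 303 and 249 against 107 and 41 reads (1.96 ± 0.46, adjusted p = 0.0276), chr10:6450801-6453400 held 38 and 60 with no island in BT474, and chr10:6426601-6428000 held 50 in SKBR3 replicate 2 alone. At PRKCZ, chr1:2161001-2173600 downstream (493 and 523 against 397 and 309, 0.55 ± 0.08, adjusted p = 0.00725), chr1:2062001-2069600 (314 and 378 against 215 and 194, 0.78 ± 0.13, adjusted p = 0.0117) and chr1:2034201-2037600 (135 and 150 against 92 and 77, 0.78 ± 0.15, adjusted p = 0.0156) were the 3 higher in SKBR3. Upstream of PRKCZ, chr1:1962601-1965400 had islands in BT474 alone (154 and 105 reads).

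**Figure D3:**
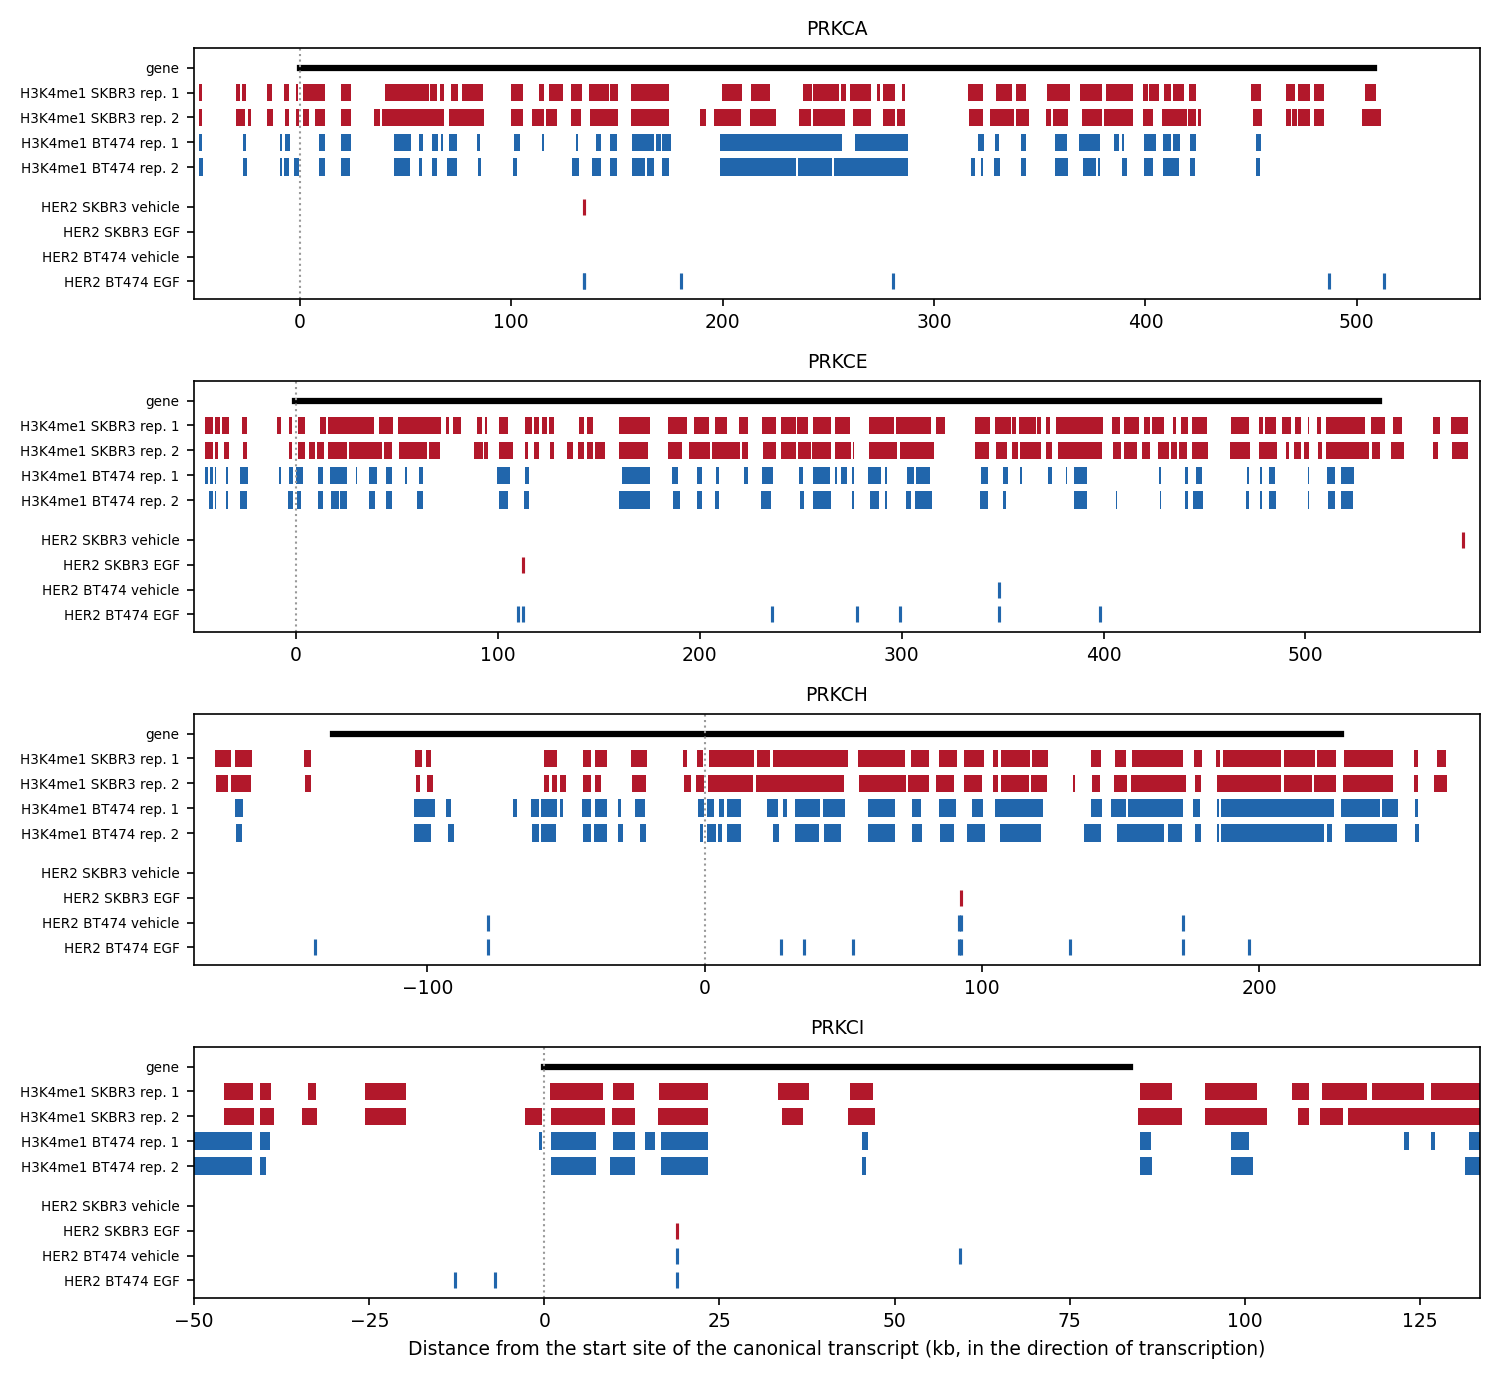
Maps of the 4 genes with the most merged regions, PRKCA, PRKCE, PRKCH and PRKCI, drawn to scale by distance in kb from the start of the canonical transcript (dotted line). The black bar is the gene, blocks are H3K4me1 islands of each library, and ticks are HER2 peaks of each list. The merged region of 92.0 kb in PRKCA, with more reads in BT474, and the denser SKBR3 islands along PRKCE stand out, as does the stack of HER2 ticks 92.4 kb after the canonical start of PRKCH.

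HER2 peaks in the windows of the 8 genes numbered 4 in SKBR3 after vehicle, 6 in SKBR3 after EGF, 12 in BT474 after vehicle and 42 in BT474 after EGF. At the rate of each whole list 2.57, 2.49, 8.46 and 29.0 peaks would fall in 3001 kb of windows. The density was 0.133 peaks per 100 kb (95% exact Poisson interval 0.0363 to 0.341) and 0.200 (0.0734 to 0.435) in SKBR3, and 0.40 (0.207 to 0.698) and 1.4 (1.01 to 1.89) in BT474, each after vehicle and EGF. These intervals cover counting error only, as do all the intervals on HER2 peaks and their shares. The interval of the ratio to the whole list included 1 in 3 lists, and for BT474 after EGF the ratio was 1.45 (1.04 to 1.96). The median over the 8 genes was 1.37 per 100 kb in that list, and that over all windows 0.898. Pooled over all protein-coding windows, its density was 1.09, which lies within the interval of the family. No test was made, since each condition had 1 list.

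The number of peaks after EGF was 3.50 times that after vehicle at the family's genes in BT474 (95% interval 1.86 to 6.58), and 3.43 times in the whole lists. In SKBR3 the ratio was 1.5 (0.455 to 4.95), and 0.971 in the whole lists. The gain in BT474 at these genes was thus close to that of the list as a whole. When each list was reduced to the 2520 peaks with the highest scores, the family's windows held 4, 6, 3 and 4 peaks in the same order, so that the excess of BT474 was not seen at equal list length. The scores are the authors' and have no stated scale, and so they were compared only within a list. The family's median score was 62.2 against 56.0 for the list in BT474 after EGF, 56.5 against 64.5 in BT474 after vehicle, 132 against 129 in SKBR3 after EGF and 28.0 against 35.0 in SKBR3 after vehicle.

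**Figure D4:**
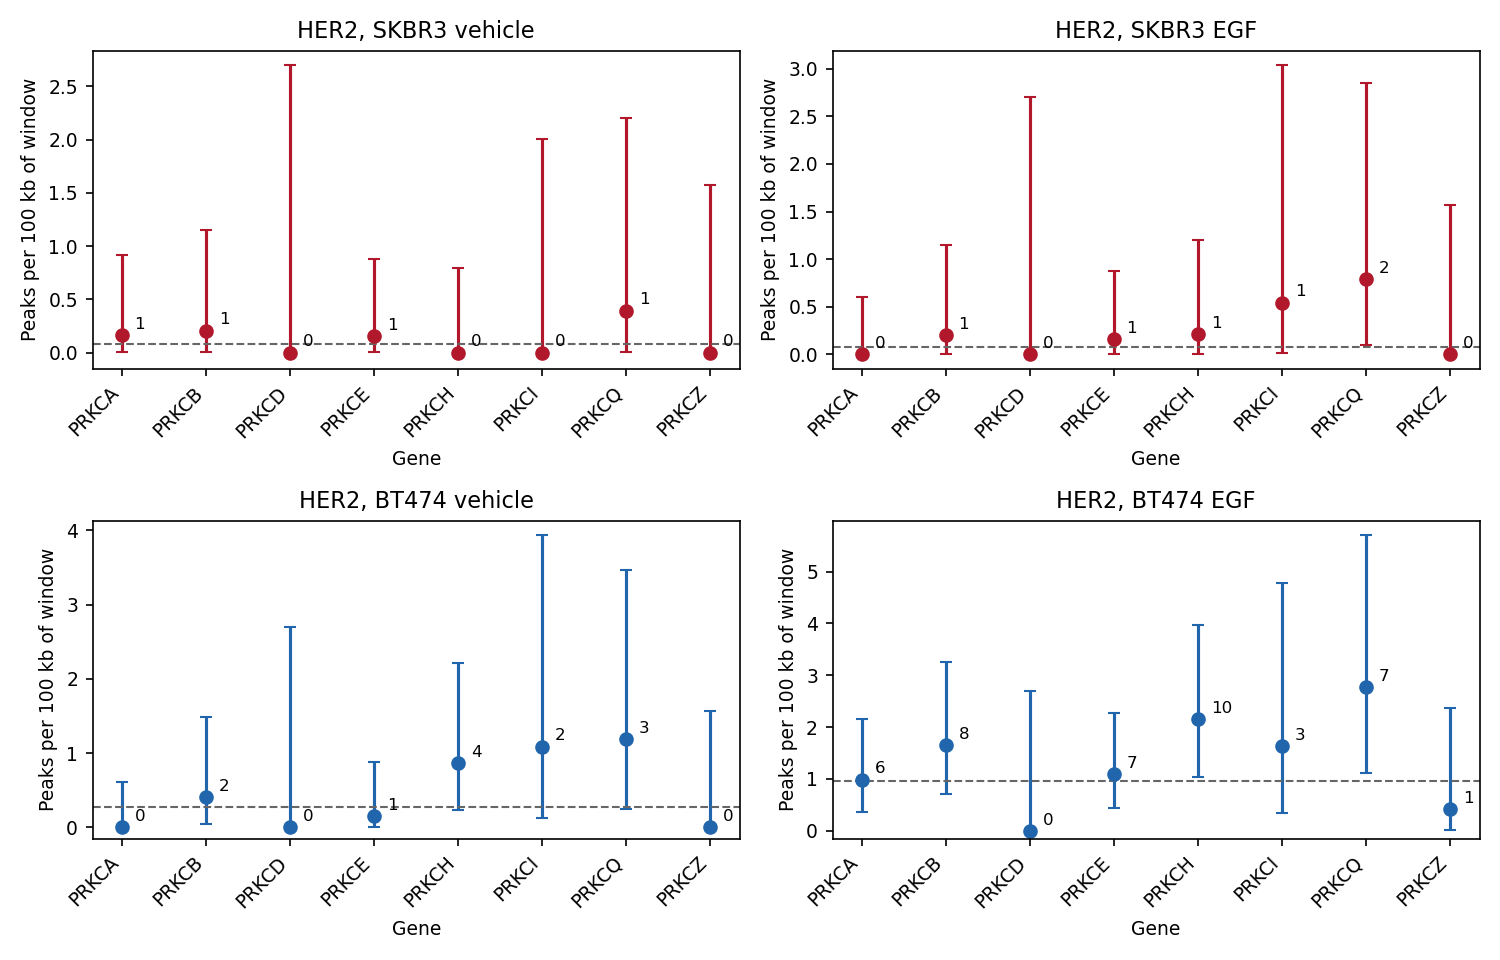
HER2 peaks per 100 kb of window for each protein kinase C gene in each list, with exact 95% Poisson bars and the number of peaks beside each point. The dashed line is the rate of the whole list, and the scale of the vertical axis differs between panels. PRKCQ and PRKCH in BT474 after EGF, and PRKCQ in SKBR3 after EGF, are the points whose bars lie wholly above the line. The bars are not adjusted for the number of genes and lists. In BT474 after EGF the density pooled over all protein-coding windows was 1.09, which the bar of PRKCH includes and that of PRKCQ, from 1.11, barely clears.

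Among the conventional genes, PRKCA held 1 and 0 peaks in SKBR3 after vehicle and EGF, and 0 and 6 in BT474. PRKCB held 1 and 1, and 2 and 8, in the same order, which is 1.65 peaks per 100 kb (0.713 to 3.25) in BT474 after EGF. PRKCA, with 0.987 (0.362 to 2.15), was at the rate of its list, and both intervals included the rate of 0.966. PRKCB therefore carried HER2 peaks with almost no H3K4me1, whereas PRKCA, with much H3K4me1, carried about as many peaks as its length gives at the rate of the list.

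Among the genes that respond to diacylglycerol without calcium, PRKCH held 0 and 1 peaks in SKBR3 and 4 and 10 in BT474. Its density in BT474 after EGF was 2.16 per 100 kb (1.03 to 3.97), 2.23 times the rate of the list, and windows of like length (623 windows) had a median of 1.03. The interval includes 1.09, the density of that list pooled over all protein-coding windows. PRKCQ held 1 and 2, and 3 and 7, with 2.77 per 100 kb (1.11 to 5.70) in BT474 after EGF, 2.86 times the rate of the list. In SKBR3 after EGF, PRKCQ reached 9.52 times the list's rate, though with 2 peaks and an interval of 1.15 to 34.4. PRKCE held 1 and 1, and 1 and 7, close to the list's rate at 1.1 per 100 kb (0.442 to 2.27) in BT474 after EGF. PRKCD held no peak in any list, which for its 137 kb allows up to 2.70 per 100 kb, and 69.3% of the windows of like length held a peak in BT474 after EGF.

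Of the atypical genes, PRKCI held 0 and 1 peaks in SKBR3 and 2 and 3 in BT474, and PRKCZ held 1 peak in all, in BT474 after EGF. In that list PRKCI had 1.63 per 100 kb (0.337 to 4.78) and PRKCZ 0.426 (0.0108 to 2.37). At least 1 peak was found at 4, 5, 5 and 7 of the 8 genes in the 4 lists, in the order used above. Over all windows this was so for 12.2%, 13.0%, 35.5% and 72.6%, but the family's windows are longer, with a median of 358 kb against 127 kb for all windows tested.

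Peaks that overlapped by at least 1 bp were joined into 45 sites, of which 32 were in 1 list, 8 in 2 lists, 5 in 3 lists and 0 in all 4. BT474 after EGF alone accounted for 28 sites. All 6 SKBR3 EGF peaks were shared with BT474 EGF (100%, 95% Wilson interval 61.0 to 100), against 84.7% of that whole list, and 5 of the 6 with BT474 vehicle. None of the 6 was shared with SKBR3 vehicle, which allows up to 39.0%, against 13.3% of the whole list. The 2 lists of SKBR3 therefore had no family site in common, while 11 of 12 BT474 vehicle peaks (91.7%, 64.6 to 98.5) recurred in BT474 after EGF, as did 91.2% of the whole list. SKBR3 vehicle shared 1 of its 4 peaks, in an intron of PRKCA at chr17:64432900-64433131, with BT474 EGF.

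The 5 sites found in 3 lists were in PRKCB, PRKCH, PRKCI and PRKCQ, and each was missing from SKBR3 vehicle. The PRKCH site, chr14:61880537-61880898, had a score of 134.5 in SKBR3 after EGF, 239.5 in BT474 after vehicle and 543 in BT474 after EGF, where it exceeded 99.5% of the list. A second BT474 site lay beside it at chr14:61879718-61880071, with a score of 271 after EGF. The PRKCB site, chr16:24059161-24059476, scored 174 in SKBR3 after EGF, and the PRKCQ sites, chr10:6473223-6473538 and chr10:6475276-6475613, scored 96.5 and 62.5 there. The PRKCE site seen in both lines after EGF scored 130. The other 3 SKBR3 vehicle peaks, at chr16:24018094-24018315 in PRKCB, chr2:46456920-46457119 after PRKCE and chr10:6503894-6504107 in PRKCQ, were in no other list.

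Most sites lay far from the canonical start sites. Of the 45, 32 were in an intron, 2 overlapped an exon and 11 were in a flank, and 2 lay within 10 kb of the start of a canonical transcript. Within 10 kb of any annotated start of the same gene lay 12 of the 45. The nearest to a canonical start was the upstream PRKCB site chr16:23844252-23844552, 2.91 kb from the start and present in both BT474 lists. The other was 7.09 kb before the start of PRKCI, in BT474 after EGF.

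**Figure D5:**
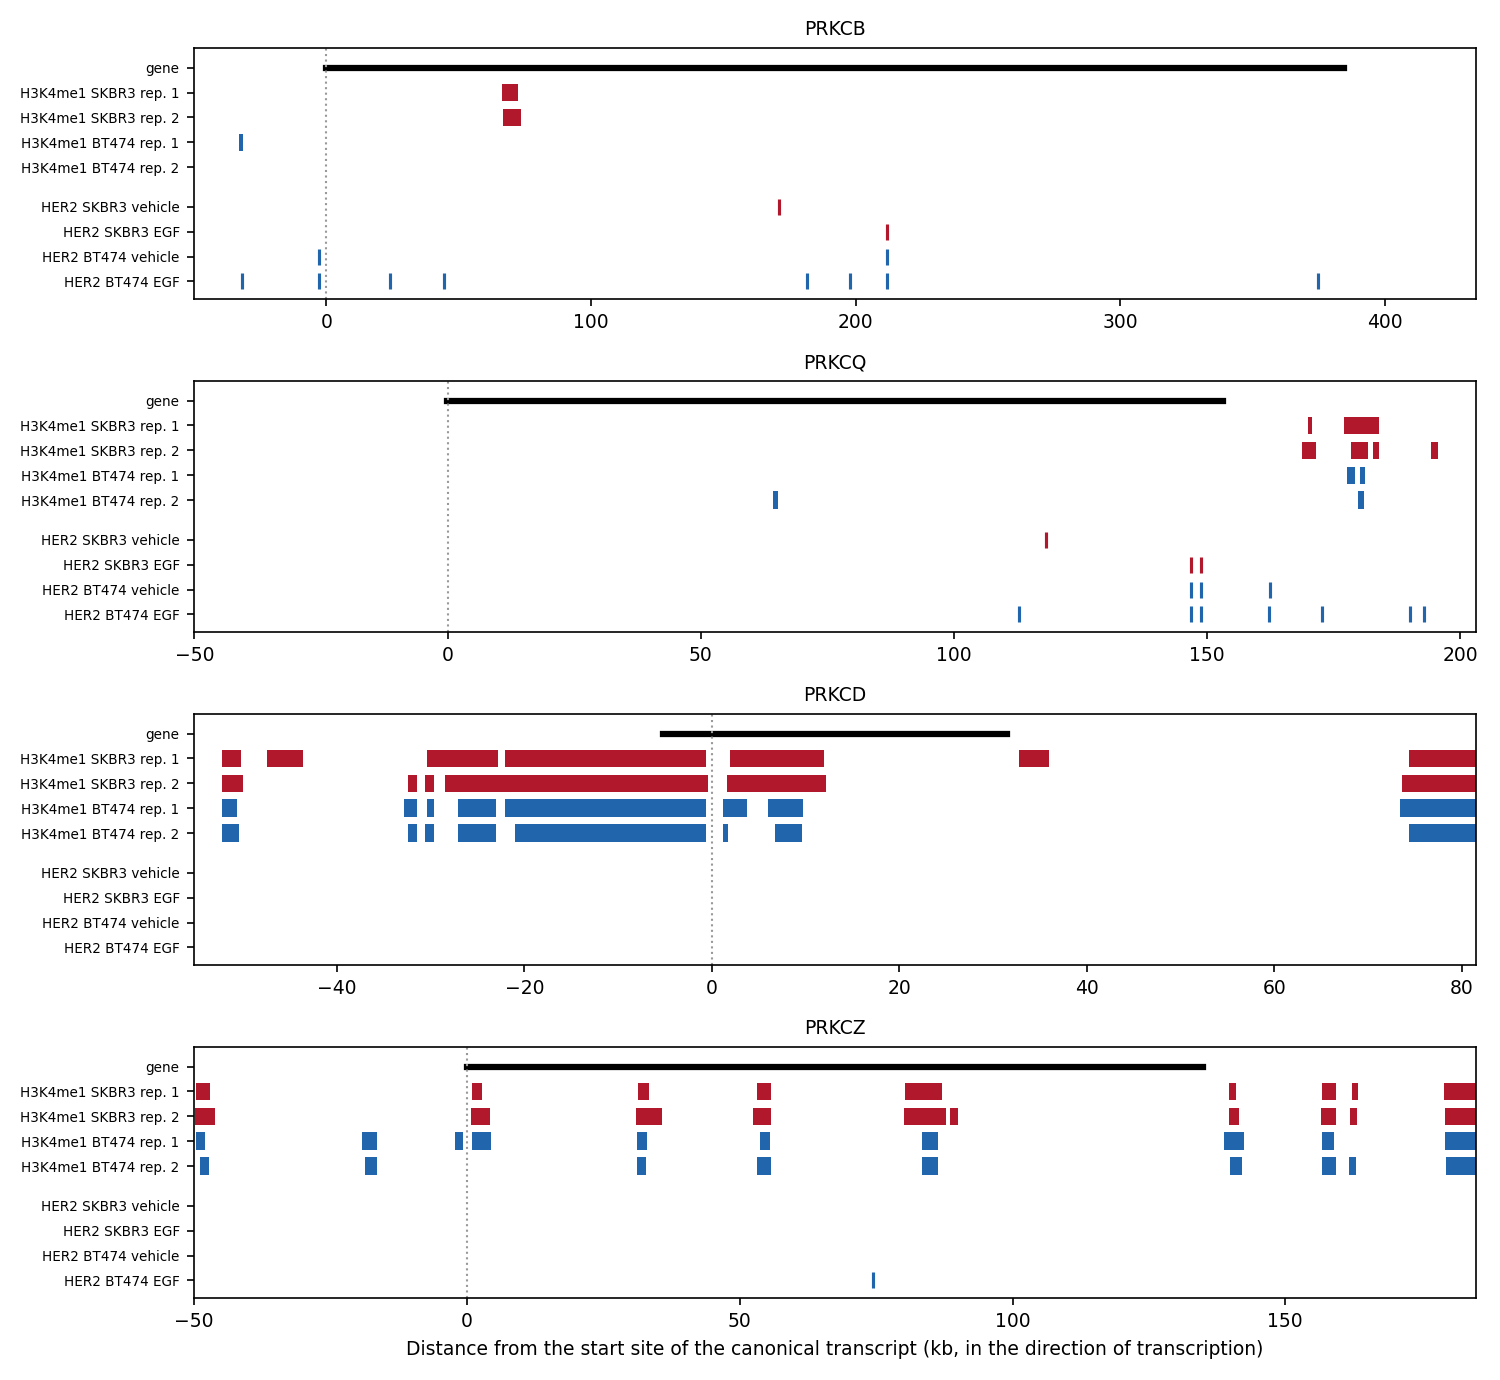
Maps of PRKCB, PRKCQ, PRKCD and PRKCZ, drawn as distance in kb from the start of the canonical transcript in the direction of transcription, with the gene as a black bar, H3K4me1 islands as blocks and HER2 peaks as ticks. PRKCB and PRKCQ carry HER2 ticks along gene bodies that are almost free of islands, whereas PRKCD carries islands around its start and no tick.

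HER2 peaks of the family seldom lay in H3K4me1 islands of their own line, as was also so for the whole lists. In BT474 after EGF 7 of 42 did (16.7%, 95% Wilson interval 8.32 to 30.6), against 14% of the whole list, and 20.8% of the windows was under islands. A peak was counted with an island of either replicate, whereas the cover of the windows is the mean of the replicates and so is somewhat smaller than the cover by either. The numbers were 2 of 12 in BT474 after vehicle (16.7%, against 15.4% of the whole list). In SKBR3 they were 1 of 4 after vehicle (25%, against 18.8%) and 1 of 6 after EGF (16.7%, against 17.4%). In that line 35.6% of the windows was under islands. With the islands of BT474 replicate 2 alone, the share after EGF was 9.52%, and with those of replicate 1 alone it was 16.7%. None of the 13 peaks of PRKCQ, of which some are the same site in several lists, was in an island. The PRKCQ window was under islands over 3.24% in SKBR3 and 0.948% in BT474, as means of the replicates. Cover alone therefore gives few or no such peaks there. PRKCH held 3 of the 7 peaks of BT474 after EGF, in introns at chr14:61824120-61824354, chr14:61960468-61960795 and chr14:61984219-61984484. They lay 35.9, 172 and 196 kb after the canonical start but 3.56, 1.72 and 7.46 kb from the nearest start of any annotated PRKCH transcript. The others were in PRKCA, PRKCB, PRKCE and PRKCI. At PRKCE, 4 of the 7 peaks of BT474 after EGF lay where SKBR3 had an island, and 1 where BT474 had one. Islands covered 58.6% of that window in SKBR3 and 21.5% in BT474, as means of the replicates, so that these counts are close to what cover alone gives.

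The core CGTNTGC was present in 0 of 4, 1 of 6, 1 of 12 and 3 of 42 peaks of the family, in SKBR3 after vehicle and EGF and then in BT474. In the whole lists it was found in 8.44%, 15.9%, 19.4% and 11.8% of peaks, and in 2.47%, 3.61%, 2.64% and 2.68% of windows of the same size 1 kb away. For BT474 after EGF the interval of the family's 7.14% (2.46 to 19) included the share of the list. It also included the 2.68% of windows 1 kb away, so that it cannot tell these apart. The sites with a match were in PRKCA, PRKCQ and PRKCZ.

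Of the 46 other genes of the pathway, 13 were higher in H3K4me1 reads in SKBR3, 24 were higher in BT474 and 9 did not pass (edgeR, adjusted over all windows), with a median log2 ratio of -0.53, beside the 34.2% and 38.2% of all windows tested that were higher in SKBR3 and in BT474. Some genes of the list are not reported by class here. Protein kinase D, which is phosphorylated by PKC, had 0 of its 3 genes higher in SKBR3 and 2 higher in BT474. The phospholipases C, which release diacylglycerol, had 7 of 12 higher in SKBR3 and 4 in BT474, and the diacylglycerol kinases, which remove it, 2 and 6 of 10. The activating kinase PDPK1, scaffolds and substrates had 2 and 7 of 11, and other phorbol ester receptors 2 and 2 of 6.

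The genes with the highest ratios were PLCD1, a phospholipase C (334 and 359 RPM per 100 kb in SKBR3 against 68.4 and 59.2 in BT474, log2 ratio 2.58 ± 0.09, edgeR adjusted p = 9.14e-05), and RASGRP3, an exchange factor for Ras with a diacylglycerol site (64.9 and 66.5 against 13.4 and 13.0, 2.46 ± 0.07, adjusted p = 7.92e-05). PLCH2 (1.30 ± 0.09) and CHN2 (0.92 ± 0.04) followed. At PRKD1, which encodes protein kinase D1, 58.9 and 62.7 RPM per 100 kb were found in BT474, and no island was called in SKBR3. DGKK had 5.31 and 5.80 in BT474 and no island in SKBR3. DGKQ (-3.13 ± 0.30) and DGKH (-2.60 ± 0.30), also diacylglycerol kinases, were next. A HER2 peak was present in all 4 lists in the windows of PLCH1, DGKB and PLCD1, a count that is not corrected for window length.

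The genes whose pattern was nearest to that of PRKCH, by Euclidean distance between percentile ranks of H3K4me1 reads in the 4 libraries and of HER2 density in the 4 lists, were RGS9 (distance 9.21), HPCAL1 (9.95) and DIP2B (10.3). Each held 0 and 1 HER2 peaks in SKBR3, as numbers not corrected for window length. In BT474 RGS9 held 2 and 5, HPCAL1 2 and 4, and DIP2B 3 and 6. Their H3K4me1 levels lay between 116 RPM per 100 kb, in RGS9, and 213, in HPCAL1, and in RGS9 and HPCAL1 the lines overlapped.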

How the data were processed

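HER2 ChIP-exo (1 list for each of 4 conditions) and H3K4me1 ChIP-seq (2 replicates per line) were grouped by the cell line, antibody and treatment in the labels. The members, gene lists and tests were chosen with earlier results of these data known. For H3K4me1, the authors deposited a count of whole reads per SICER island, which is not scaled for depth. For HER2, the authors deposited peaks with a score whose scale is not stated. The study's methods name bowtie2, MACS2 and SICER on hg19, whereas the submitters' processing notes name BWA 0.5.9, MACS 1.4.1 and SICER 1.1. Blacklisted regions and regions of high input signal had been removed by the authors. The input samples were not analysed here, and HER2 depth is unknown.

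Reads of an island were shared among windows by the part of the island inside, and rounded. Genes were those of GENCODE release 44 on GRCh37. Windows and merged regions were tested with edgeR 4.0.16 (TMM scaling, quasi-likelihood) and cover with limma 3.58.1 in R 4.3.3, with Benjamini-Hochberg adjustment over all features and a threshold of 0.05. Both tools use 2 libraries per line, with which an exact permutation test could not reach that threshold. DESeq2 1.42.0, library totals, no filter, a replicate block, other windows and leaving out each library were alternatives. On simulated data, edgeR recovered 97% of windows changed by a log2 ratio of 1 and 100% at 2 among 18837 windows, and 63% and 100% among 93127 regions. The simulated spread between replicates was fixed, not estimated from these libraries, so that the recovery holds for that setting only. Intervals are exact Poisson for densities and Wilson for shares. Named were the 8 genes, for each the 3 regions with the most reads and up to 2 per direction with the highest ratio among those called, all HER2 sites in 3 lists or in SKBR3, the 4 pathway genes per direction with the highest ratio, those with a peak in all 4 lists, and the 3 genes most like PRKCH. Other regions and sites named were chosen after their values were seen. Some items covered by this rule are not reported here.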

Additional observations from a re-analysis of the deposited data

Results flagged for a closer look

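The number of HER2 peaks in the window of PRKCA changed with opposite signs in the lines, in SKBR3 by a single peak. HER2 peaks went from 0 after vehicle to 6 after EGF in BT474, a change of 6, and from 1 to 0 in SKBR3, a change of -1. At the rates of the whole SKBR3 lists, 0.520 peaks after vehicle and 0.505 after EGF would fall in this window. No direction can therefore be read from the change in SKBR3. The difference between the lines was not tested, because each condition had 1 list. In BT474 the whole list was 3.43 times longer after EGF.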

How the results depend on the processing

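Same-numbered libraries of the lines showed no shared deviation (correlation -0.0475), and whether they were prepared together is not stated. With the replicate number as a block, 7 of the 8 windows were again called higher in SKBR3 by reads. Of all windows, 5698 were then higher in SKBR3 and 6214 in BT474. With the block, PRKCH lost its call on cover (limma adjusted p = 0.0696). In that setting 0 regions were called in either direction, both among those of the family and among all. With 1 library left out in turn, family regions higher in BT474 ran from 5 to 19, all regions higher in BT474 from 9200 to 43262, family windows higher in SKBR3 by cover from 3 to 4, all such windows from 1839 to 3625, and all windows higher in BT474 by cover from 2106 to 4811. With an island in all 4 libraries, 55 family regions and 11636 of all regions were higher in SKBR3, and 11428 of all regions in BT474. In the gene body alone, 4056 of all windows were higher in SKBR3 by reads and 2875 by cover, 4 of the family by cover, and 0% of the SKBR3 vehicle peaks were in islands. The cover of PRKCQ reversed there to a logit difference of -0.94 (adjusted p = 0.408). After the regional median was taken away, PRKCA (-0.32) and PRKCZ (-0.19) reversed. HER2 density in BT474, at equal list length, was 0.100 per 100 kb after vehicle and 0.133 after EGF, and in the upper part of each list by score 0.167 and 0.80, with 0 in SKBR3 after vehicle. Of counts, shares and densities set against an alternative, 111 stayed within 1.5 times or the counting interval and 29 did not. Among values of single genes 115 kept their call, 23 lost it, 4 gained it, 3 reversed and 4 with no test moved. The causes were not tested. HER2 depth is unknown, and no HER2 difference has a replicate.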

Other observations

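The window of DGKB, a diacylglycerol kinase gene, is 930 kb long and held 1 and 2 HER2 peaks in SKBR3 after vehicle and EGF and 3 and 15 in BT474, with 20.5 and 17.8 RPM of H3K4me1 reads per 100 kb in SKBR3 and 13.9 in each BT474 library. PARD6B, a partner of PKC iota, differed little between the lines (321 and 320 against 322 and 326, log2 ratio 0.13 ± 0.05, edgeR adjusted p = 0.0718). PARD6B was named after its values were seen.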
